A study of Mus musculus with 112 samples.

Results

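Regions with an intermediate level in brain and an extreme level in sperm were taken from the DNA methylation (DNAme) tables of the unexposed wild-type (WT) animals. Autosomal CpG cytosines with 4 or more values in both the control WT F0 sperm table and the control WT F1 brain table were joined when at most 100 bp apart, and stretches of 3 or more cytosines over 50 bp gave 69884 regions. A region was kept when its mean was 40 to 60% in control brain and under 20% or over 80% in control sperm. That rule kept 4247 regions, 6.08% of all, called members here. Of these, 1351 were under 20% in control sperm (sperm-low) and 2896 were over 80% (sperm-high). In all, 4967 regions were at 40 to 60% in control brain, and 720 of them were at 20 to 80% in control sperm. The members were chosen on the control WT F0 sperm and control WT F1 brain values, so those values are described and not tested. Their libraries still entered the shared estimate of spread in the fits of F0 sperm and of brain. Members just inside and outside the limits differed little: the member nearest to Aifm2 had a brain mean of 40.0051% and the region nearest to Arsj, at 39.9945%, was left out. At the sperm limits the Cdkl3 region at 19.7% was kept and the Foxp4 region at 20.1% was not, and the Gm44072 region at 80.1% was kept while the CT486005.1 region at 79.9% was not.

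The study compared males exposed to cigarette smoke with unexposed males, of WT C57BL/6J or of Nrf2-/- genotype. Nrf2 is the transcription factor, encoded by Nfe2l2, that drives the cellular response to oxidative stress. RRBS, which reads cytosines near the cut sites of restriction enzymes after bisulfite treatment, was performed on F0 sperm of WT males, unexposed (control, 10 libraries) or exposed (smoked, 9), of Nrf2-/- males (10 control and 9 smoked), and on sperm of smoked WT males after 3 recovery intervals without smoke (recovery 1 to 3, with 9, 10 and 10 libraries). Sons came from unexposed CAST/EiJ mothers and gave sperm of control WT (6) and smoked WT (7) lines and prefrontal cortex of the control and smoked lines of both genotypes (8 libraries each). Every son was thus a hybrid of 2 strains, sons of Nrf2-/- males carried a single targeted allele, and brain was bulk tissue. In bulk tissue, a mixture of methylated and unmethylated cells and an intermediate state within each cell give the same percent and cannot be told apart. A difference between the parental alleles can give that percent too. The rule sets sperm of inbred F0 males against brain of hybrid sons, so tissue, generation and maternal strain differ together in it. Strain differences at the cytosines were not looked up. Groups carry the names of the fathers' genotype and exposure. The values are percents without read counts, so the depth behind each is unknown. Of the 32 brain libraries 5 stood apart, with a mean of 39.6 to 44.2% over all regions against 45.1 to 48.4% in the others; 1 was from the smoked WT and 4 from the smoked Nrf2-/- group. Of the 8 control WT brain samples, whose values chose the members, 1 has a strain label of NRF-/- that goes against its WT title; the title was followed, and its column could not be told from the others. Columns of the tables matched the groups but not single animals, and p-values measure the spread between libraries of a group, which may include littermates. Column headings begin with a different number for F0 sperm, F1 sperm and brain, followed by a running number that no fit used.

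A mature sperm cell holds a simple DNAme pattern: most CpG-poor sequence is fully methylated and CpG-rich promoters are unmethylated. Both parental patterns are largely erased and rewritten after fertilisation. Exceptions are the imprinting control regions, where an allele from the oocyte (maternal mark) or the sperm (paternal mark) keeps its methylation in all tissues while the other stays unmethylated. Elsewhere an intermediate level in brain is known to occur where neurons and glia, or subtypes of them, differ in methylation, above all at enhancers outside CpG islands.

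Reference sequences of 8 members are given to show what such regions look like, with every CpG in capitals (RefSeq, GRCm38/mm10, plus strand, 5′ to 3′). The first pair are sperm-low members at promoters of Magel2 and Slc38a4, genes expressed from a single parental allele. The second pair are sperm-high members near Igf2 and Meg3, whose clusters carry a paternal mark. Foxa3 stands for sperm-low members that no imprinted list named, and Creb5, Dapl1 and Phactr2 are examples of sperm-high members called between genotypes or generations.
Magel2, chr7:62377691-62377806, sperm-low: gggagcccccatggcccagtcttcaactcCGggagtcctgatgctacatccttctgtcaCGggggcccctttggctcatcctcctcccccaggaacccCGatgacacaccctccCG
Slc38a4, chr15:97056153-97056289, sperm-low: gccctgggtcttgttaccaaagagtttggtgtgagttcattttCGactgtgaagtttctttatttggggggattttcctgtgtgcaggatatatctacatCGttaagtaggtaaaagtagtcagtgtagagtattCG
Igf2, chr7:142675075-142675172, sperm-high: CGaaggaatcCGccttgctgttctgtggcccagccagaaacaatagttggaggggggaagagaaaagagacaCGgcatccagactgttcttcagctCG
Meg3, chr12:109525712-109525792, sperm-high: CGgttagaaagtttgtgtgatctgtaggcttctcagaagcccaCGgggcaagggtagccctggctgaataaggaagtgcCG
Foxa3, chr7:19022888-19023098, sperm-low: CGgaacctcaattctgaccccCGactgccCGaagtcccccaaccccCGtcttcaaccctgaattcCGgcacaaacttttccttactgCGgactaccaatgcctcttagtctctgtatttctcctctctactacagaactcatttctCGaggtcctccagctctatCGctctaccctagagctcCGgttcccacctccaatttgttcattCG
Creb5, chr6:53308736-53308831, sperm-high: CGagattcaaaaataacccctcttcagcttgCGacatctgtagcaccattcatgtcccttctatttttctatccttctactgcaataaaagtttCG
Dapl1, chr2:59529912-59530001, sperm-high: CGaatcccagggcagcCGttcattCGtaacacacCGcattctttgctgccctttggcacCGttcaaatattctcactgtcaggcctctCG
Phactr2, chr10:13427829-13427909, sperm-high: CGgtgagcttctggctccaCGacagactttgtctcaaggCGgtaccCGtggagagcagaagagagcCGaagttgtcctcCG
The tables count the cytosine of each strand separately, so the 10 CpGs of the Foxa3 stretch gave 17 measured cytosines. The Slc38a4 stretch holds 3 CpGs in 137 bp.

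Members kept their sperm level in F0 sperm of every treatment. Over the libraries of each F0 group, the median sperm-low member was at 2.78 to 3.40% on average and the median sperm-high member at 94.7 to 96.0%. Of the 4224 members with a value in the other 6 F0 groups, 3975 (94.1%) stayed on their side of 20 or 80% in all of them. In sperm of the sons the levels were less extreme. Other regions over 85% in control brain were lower there as well. Their library medians averaged 94.7% in smoked WT F0 and 91.5% in smoked WT F1 sperm. The median sperm-low member was at 5.46% ± 0.46 (SD, n = 6) in control WT F1 sperm and 5.78% ± 0.83 (n = 7) in smoked WT F1 sperm, with libraries from 4.63 to 6.94% in the 2 groups, while F0 libraries ranged from 2.06 to 4.66%. The median sperm-high member was at 89.4% ± 5.55 (n = 6) and 92.1% ± 2.88 (n = 7), with libraries from 79.2 to 95.1%. The library at 79.2%, control WT F1 sperm column 3, had a value at only 1248 members. In smoked WT F1 sperm 82.5% of the sperm-low and 86.4% of the sperm-high members were still on their side of the limits, and over all 8 sperm groups the rule did not use the share was 76.9% (3191 of 4151 members).

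**Figure D1:**
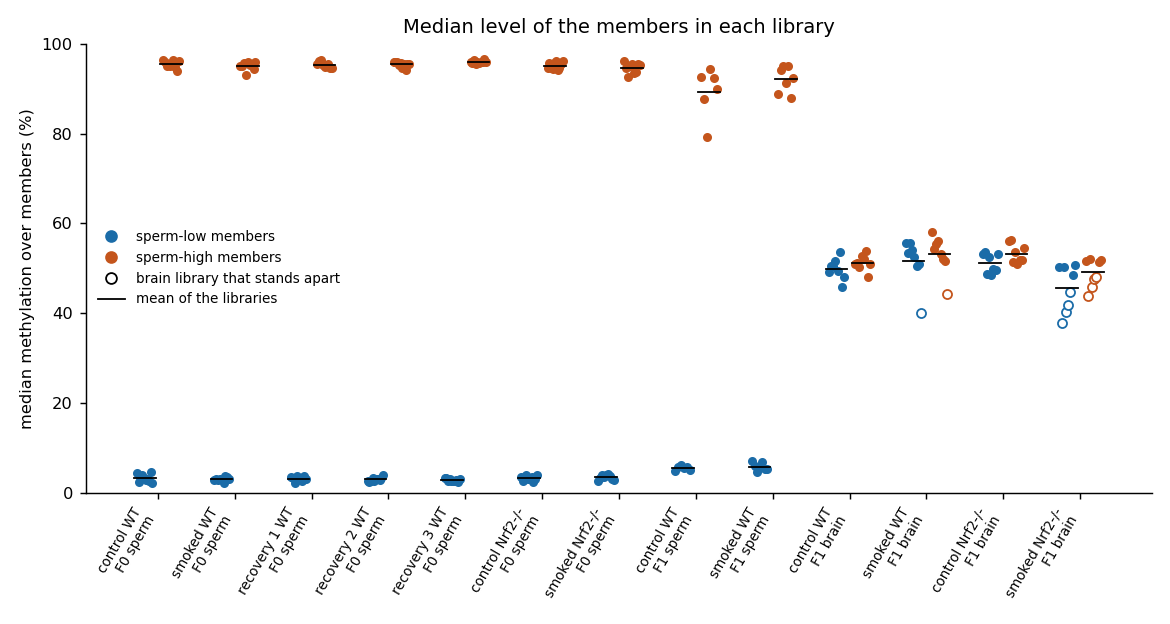
Median DNAme level (%) over sperm-low (blue) and sperm-high (orange) members in each of the 112 libraries, by group; each point is a library, the bar is the mean of the group and open points are the 5 brain libraries with a low mean over all regions. Sperm libraries sit at 2.06 to 6.94% or 79.2 to 96.7%, brain libraries between 37.8 and 58.2%.

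Brain groups that the rule did not use also held the members at intermediate levels. The median was 52.1% for sperm-low and 53.3% for sperm-high members in smoked WT brain, 51.05% and 53.4% in control Nrf2-/- brain, and 45.5% and 48.6% in smoked Nrf2-/- brain. A level of 40 to 60% was found for 80.8% and 81.4% of the 2 classes in smoked WT, 80.3% and 81.4% in control Nrf2-/-, and 70.7% and 77.5% in smoked Nrf2-/- brain. In all 3 groups together 2439 of 4247 members (57.4%) stayed within 40 to 60%. Between the libraries of a brain group that the rule did not use, the median SD of sperm-low and sperm-high members was 8.82 and 8.71 points in smoked WT, 7.10 and 6.90 in control Nrf2-/- and 8.83 and 7.71 in smoked Nrf2-/- brain. Other regions at 40 to 60% in the same group had median SDs of 9.47, 7.59 and 10.9 points. They were chosen by the mean of that group and members by that of control brain, so the sets are not matched. In control WT brain, whose mean chose both sets, the median SDs were 7.28 and 6.50 points for members and 6.68 for the others. Without the libraries that stood apart the SDs of members were 7.41 and 7.40 points in smoked WT brain (n = 7). In smoked Nrf2-/- brain they were 5.82 and 5.30 points (n = 4). Those libraries were left out for their low level, so smaller SDs follow from that choice and the groups are not ranked by them.

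**Figure D2:**
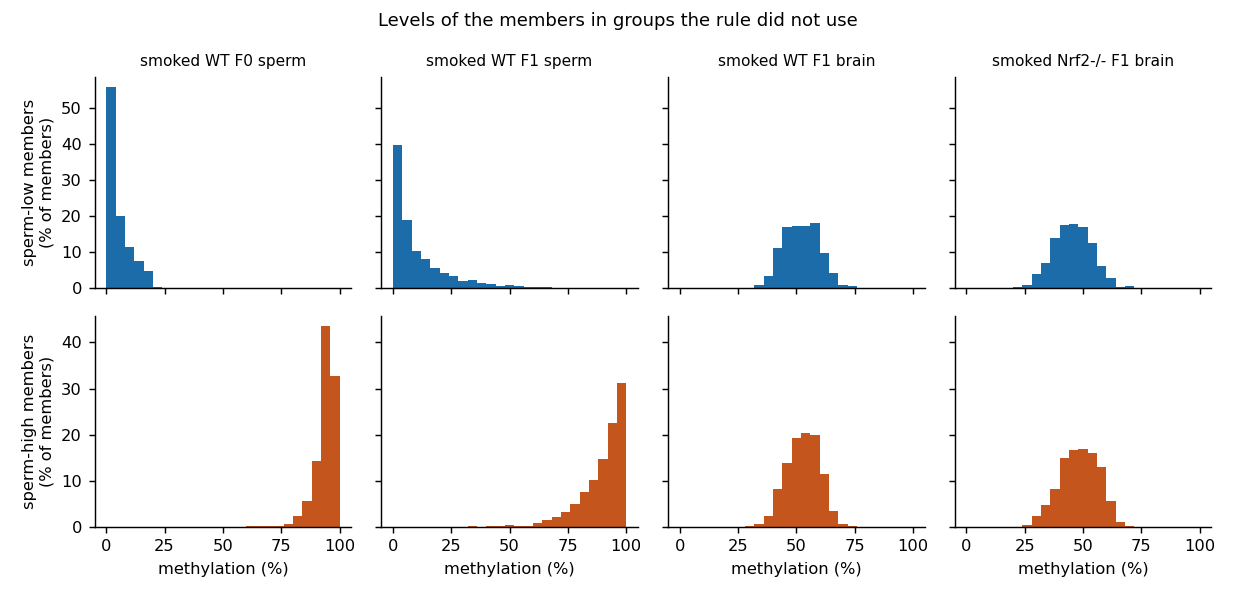
Distribution of the mean level (%) of sperm-low (upper row) and sperm-high (lower row) members in smoked WT F0 sperm, smoked WT F1 sperm, smoked WT F1 brain and smoked Nrf2-/- F1 brain, as a percent of the members with a value. The medians were 3.18 and 94.8% in F0 sperm, 5.88 and 92.9% in F1 sperm, and 52.1 and 53.3% in smoked WT brain.

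The contrast between tissues was tested in sons of smoked WT males, whose sperm and brain had no part in the rule. The rule set the same tissues apart in other groups, so a high share of calls follows from it. Sperm-low members were a median of 43.1 points lower in sperm than in brain and sperm-high members 37.8 points higher. Of 3660 members tested, 3548 passed an adjusted p of 0.05 (limma, Benjamini-Hochberg over all regions), beside 55.4% of all 59115 regions. Without the smoked WT brain library that stood apart the count was 3550, beside 54.6%. Of 1119 sperm-low members 1062 were lower in sperm and 5 higher, against 28.8% of all regions called lower. Of 2541 sperm-high members 2478 were higher and 3 lower, against 26.5% of all regions called higher. Regions outside the member set but also under 20% in control sperm were lower in F1 sperm in 41.1% of cases and higher in 2.47%, and those over 80% were higher in 48.5% and lower in 9.96%. The 5 members with the smallest p were all sperm-low. Among them was a member in coding sequence of Pcdhb9, a clustered protocadherin, which ranged from 1.42 to 2.67% in 7 sperm libraries, with a median of 2.19%, and from 57.3 to 63.3% in 8 brain libraries, with a median of 59.8%. The groups did not overlap, and the difference was 57.9 points (SE 1.68, adjusted p = 2.83e-14). At the promoter member of Foxa3, a liver forkhead factor, sperm ranged from 2.03 to 6.27% and brain from 46.1 to 53.3%, with medians of 3.22 and 51.3%. The groups were again apart, by 47.3 points (SE 1.54, adjusted p = 1.22e-13). An intronic member of Sox5, a transcription factor of neural development, with its nearest start that of Sox5it, was lower in sperm by 59.4 points.

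The intermediate level was seen at single cytosines too. Over the 24 brain libraries that the rule did not use, 93.8% of the 23143 cytosines in members had a mean of 20 to 80%, and 48.05% had one of 40 to 60%. Within a region the cytosines had a median SD of 14.8 points for sperm-low and 11.6 points for sperm-high members. All cytosines were at 20 to 80% in 875 of 1351 sperm-low members (64.8%) and in 2476 of 2896 sperm-high members (85.5%). Only 1 of 4247 members consisted entirely of cytosines outside 20 to 80%.

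Members were scattered, and sperm-high members were shorter and poorer in CpGs than sperm-low ones. Sperm-high members had a median length of 101 bp and 4 cytosines and sperm-low members 113 bp and 5 cytosines, against 114 bp and 6 cytosines over all regions. Members fell into 4119 loci when members within 5000 bp were joined, 3995 of them with a single member. Sperm-high members lay mostly in introns (49.97%) and intergenic sequence (30.2%), with 8.29% within 1000 bp of a transcription start. Sperm-low members lay in intergenic sequence (36.7%), promoters (27.1%), introns (19.4%) and coding exons (13.7%). Of all regions 38.2% were at promoters, and of these 2.27% were members, against 10.5% of intronic regions. The ratio of observed to expected CpGs in a 300-bp window had a median of 0.463 in sperm-low and 0.371 in sperm-high members, against 0.500 over all regions. Members made up 9.38% of the regions in the quartile with the lowest ratio and 1.17% of those in the quartile with the highest. Sperm-high members fell from 7.61% to 0.384% over the 4 quartiles, while sperm-low members made up 1.77, 2.71, 2.47 and 0.784%. These are descriptions of the set, with no test. Windows with more than 50% of their bases in masked repeats were 2.87% of members and 7.42% of all regions. The motif TGCCGC, the core of the sequence bound by ZFP57 at imprinting control regions when methylated, was found on either strand in the windows of 10.4% of sperm-low and 4.04% of sperm-high members and in 12.7% of all windows. A core of the CTCF motif was found in 0.377% of member windows and 0.837% of all, and TGACNNNGC, the core of the element bound by NRF2, in 12.7% and 11.9%. The letters of the first 2 motifs can overlap, and a match is a string and not a binding site.

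**Figure D3:**
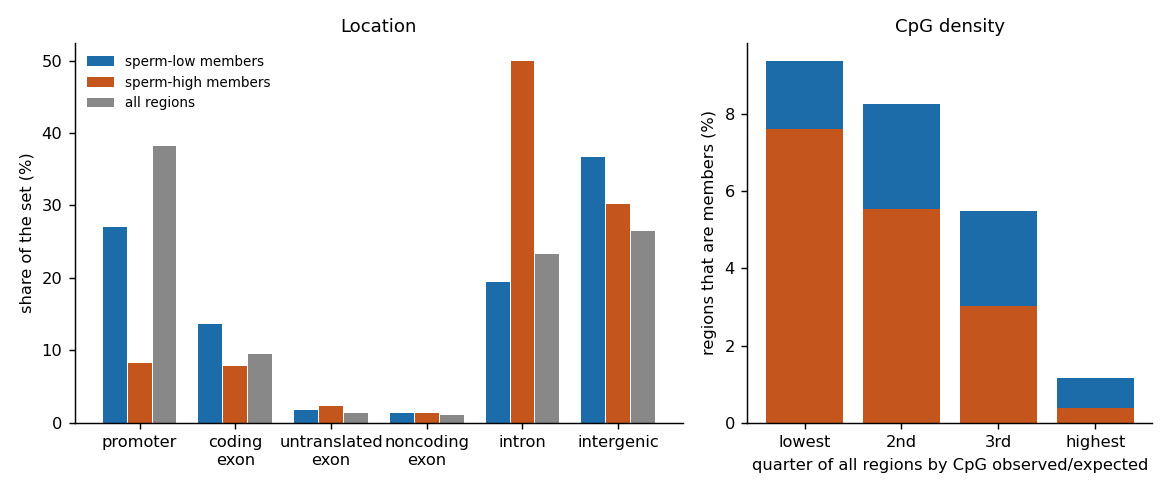
Left, the share (%) of sperm-low members, sperm-high members and all regions in each type of location. Right, the percent of regions that are sperm-high (orange) or sperm-low (blue) members in each quartile of all regions by observed/expected CpG ratio; the total falls from 9.38% to 1.17%.

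The members with the most cytosines outside the imprinted lists were sperm-low. The 10 largest sperm-low members, among them those with the nearest start that of Dchs1, Oaz1, Zfp316, Lrg1, Sema5b, Papolb, Disp3, Gm26796 and Urm1, held 44 to 96 cytosines. Those nearest to Oaz1, Lrg1 and Gm26796 lay in coding exons of other genes, namely Lingo3, Sema6b and Ccdc177. The largest lay in coding sequence of Dchs1, an atypical cadherin of the Hippo and planar polarity pathways, with 96 cytosines. It ranged from 0.642 to 1.96% in 4 smoked WT F1 sperm libraries and from 37.5 to 48.2% in 8 brain libraries of the same group, with medians of 1.18 and 40.3%. Disp3, a patched-family membrane protein, had the narrowest spread of the 10 in smoked WT brain, at 50.2% ± 1.87 (n = 8) over 51 cytosines, with 50.4% ± 1.51 in control Nrf2-/- and 48.8% ± 2.60 in smoked Nrf2-/- brain. Papolb, a poly(A) polymerase of spermatids, had its start within a member at 2.00% ± 1.06 (n = 6) in F1 sperm and 48.4% ± 6.78 (n = 8) in brain of the smoked WT group. The 10 largest sperm-high members, nearest to Gm10863, Prdm16, Irf8, Ipo13, Nphp4, Sqle, Piwil1, Mtcl1, Hlcs and Lmntd1, held 14 to 24 cytosines. In smoked WT brain their means ran from 43.2% (Hlcs, the ligase that attaches biotin to carboxylases) to 65.9% (Mtcl1). Irf8, a transcription factor of microglia and other myeloid cells, had a member in coding sequence that ranged from 33.7 to 65.2% in smoked WT and from 31.2 to 62.4% in smoked Nrf2-/- brain, with overlapping groups. Of the 9 with a value in smoked WT F1 sperm, Lmntd1 alone had a mean below 80%, at 65.7% ± 10.3 (n = 7), while the 9 libraries of smoked WT F0 sperm ranged from 88.5 to 99.2%.

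Members near imprinted genes were few. Lists of imprinted genes were grouped as maternal-mark (region within 5 kb of a start) or paternal-mark (within 40 kb). They lay near 171 regions, 0.245% of all, and near 14 members, 0.330% of members. Whether each listed gene carries a methylation mark from that parent was not checked, so the names stand for the lists only. Of the 10 members near maternal-mark genes 8 were sperm-low, and of the 4 near paternal-mark genes 3 were sperm-high. All 14 differed between sperm and brain of sons of smoked WT males, 9 lower and 5 higher in sperm (limma adjusted p under 0.05). Of all members 96.9% were called there, and of all regions 55.4%, so the 14 did not stand out from the members. Among the maternal-mark genes Plagl1, a zinc-finger regulator of growth, had the largest imprinted member, 57 cytosines over its start at chr10:13090765-13091189. It ranged from 0.539 to 2.00% in 4 smoked WT F1 sperm libraries, from 26.4 to 51.7% in smoked WT brain with a median of 48.2%, and from 41.8 to 51.9% in control Nrf2-/- brain with a median of 47.2%. Smoked Nrf2-/- brain ranged lower, from 20.7 to 47.1% with a median of 36.8%, and overlapped both other groups.

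The Gnas cluster, which encodes the stimulatory G-protein alpha subunit and several imprinted transcripts, had 2 members. The first, at chr2:174298019-174298310 with 19 cytosines, lay 160 bp from a Gnas start and 2583 bp from Nespas. It was at 2.14% ± 3.43 (n = 5) in F1 sperm and 40.2% ± 7.97 (n = 8) in brain of the smoked WT group. The second, at chr2:174326630-174326736, was at 2.02% ± 2.34 (n = 7) in F1 sperm and ranged from 44.9 to 62.7% in brain, with a median of 56.7%. At Magel2, a gene of the Prader-Willi cluster, F1 sperm had a highest value of 3.89% in 5 libraries and smoked WT brain ranged from 24.5 to 52.6% with a median of 48.5%. Slc38a4, an amino acid transporter, was at 2.74% ± 2.70 (n = 6) in F1 sperm and 54.6% ± 5.66 (n = 8) in brain, and the smallest value of the 8, 47.6%, was far above every sperm library. Cdkn1c, a cyclin-dependent kinase inhibitor, had a member 4290 bp from its start that was 0% in the 4 smoked WT F1 sperm libraries with a value and 33.3 to 53.2% in brain. The region near Nnat and Blcap was the least empty in sperm, at 12.1% ± 1.74 (n = 7), beside 48.2% ± 6.49 (n = 8) in brain. Smoc1 had a sperm-low member near its start and a sperm-high member 1653 bp from it, at 53.6% ± 19.1 and 57.9% ± 4.90 (n = 8 each) in smoked WT brain. Jade1, from the maternal-mark list, had a sperm-high member at its promoter, at 93.6% ± 10.9 (n = 5) in F1 sperm and 48.4% ± 4.73 (n = 8) in brain.

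Among the paternal-mark genes, the Meg3 member lay 15209 bp from the Meg3 start, in the intergenic stretch between Dlk1 and Meg3. It ranged from 77.8 to 100% in 7 smoked WT F1 sperm libraries and from 21.6 to 65.7% in brain, with medians of 96.7 and 43.1%. The Igf2 member, 8259 bp from the start of this growth factor gene and 4361 bp from Ins2, was at 90.9% ± 6.60 (n = 7) in F1 sperm and 55.99% ± 5.80 (n = 8) in brain. The member counted for H19 lay 18597 bp from the H19 start and 655 bp from that of Nctc1. It was at 97.2% ± 2.86 (n = 5) in F1 sperm and at 58.02% ± 2.85 (n = 8) in smoked WT brain, with 59.1% ± 1.84 in control Nrf2-/- and 53.6% ± 7.63 in smoked Nrf2-/- brain. The Zdbf2 member lay in coding sequence 18212 bp from the start and was sperm-low, at 10.2% ± 3.59 (n = 5) in F1 sperm and 46.1% ± 10.1 (n = 8) in brain.

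**Figure D4:**
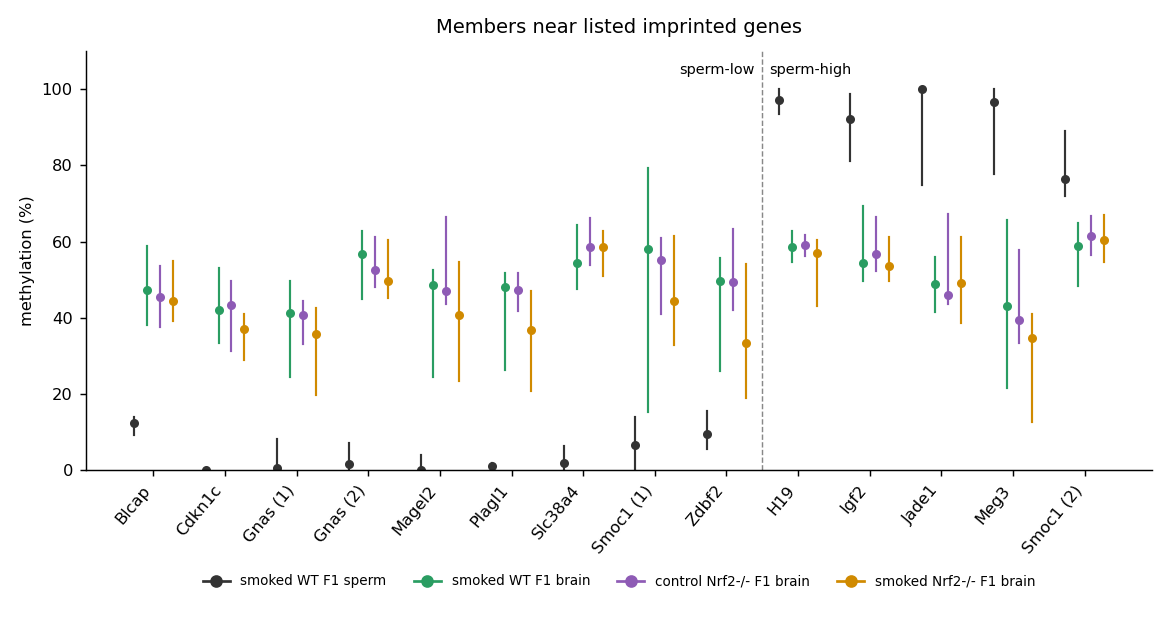
DNAme level (%) of the 14 members near listed imprinted genes in smoked WT F1 sperm and in 3 brain groups that the rule did not use; points are medians and lines run from the lowest to the highest library. Gnas (1) and (2) are in the order of the text, Smoc1 (1) is the sperm-low and (2) the sperm-high member. Every median in sperm is at most 12.5% or at least 76.6%, and every median in brain is between 33.5 and 61.5%.

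Many regions near maternal-mark genes had an intermediate brain level outside the limits of the rule. Of the maternal-mark regions under 20% in control sperm, 34 were at 20 to 40% in control brain, with a median of 29.2%, 8 were members, and 4 were at 60 to 80%, with a median of 66.9%. The 4 were all at promoters and included Mest, a hydrolase-fold gene expressed from the paternal allele, at 68.3% in control brain and 2.44% in control sperm. The 34 had a median observed/expected CpG ratio of 0.702, against 0.403 in the 8 members. They included regions at Peg3, Snrpn, Peg10, Grb10, Zrsr1, Peg13, Kcnq1ot1, Nap1l5 and Airn. In control brain Peg3, a zinc-finger gene, was at 27.2%, the largest Grb10 region at 34.8%, Peg13 at 34.7% and Kcnq1ot1, the antisense RNA of its cluster, at 20.9%. Inpp5f at 39.3% and an H13 and Mcts2 region at 39.7% lay just under the limit. The 3 sets were cut by their level in control brain, so a like order in other brain groups follows from the cut. In smoked WT brain the medians were 30.9% for the 34, 47.4% for the 8 and 66.2% for the 4. In smoked Nrf2-/- brain they were 24.1, 41.8 and 62.3%. Among paternal-mark genes, Rasgrf1, a guanine nucleotide exchange factor with a known paternal mark upstream, had regions at 21.5 and 37.1% in control brain that were 92.7 and 82.9% in control sperm.

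Members near markers of brain cell types were also few. Of 20 neuronal genes 1 had a member within 5 kb of a start, of 16 oligodendrocyte-lineage genes 3, of 10 astrocyte genes none, of 13 microglia and endothelium genes 3, and of 26 germline and pluripotency genes none. In the same order, the share of members near these lists was 0.0235, 0.0706, 0, 0.0706 and 0%, and that of all regions 0.110, 0.0501, 0.0343, 0.0343 and 0.0343%. Of 77 regions near neuronal genes 69 were under 20% in control brain. The members lay near Rbfox3, which encodes the neuronal nuclear antigen NeuN, the oligodendrocyte genes Sox10, Olig1 and Mbp, the microglial receptor gene P2ry12, C1qb, a complement component made by microglia, and Flt1, an endothelial receptor. That near P2ry12 also lay in coding sequence of Med12l, and that near C1qb in a coding exon of C1qc, another complement gene. The promoter member of Mbp, encoding myelin basic protein, was 1.14% in smoked WT F1 sperm and 47.6% in brain of the same group. The Sox10 member, with 24 cytosines, is the same region as that named above by its nearest start, Gm10863. It was at 90.7 and 55.8%, and the intronic Rbfox3 member at 97.9 and 44.8%.

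In sperm, F1 males of the smoked WT line were compared with smoked WT F0 males, which the study collected separately from its breeding males. Sperm-low members were a median of 1.93 points higher and sperm-high members 1.81 points lower in F1 than in F0 sperm. Of 3641 members 1025 were called, beside 20.8% of all regions. Of 1120 sperm-low members 339 were higher in F1 sperm and 10 lower, beside 8.98% of all regions called higher. Of 2521 sperm-high members 636 were lower and 40 higher, beside 11.8% called lower. Regions that were no member were called higher in 8.55% and lower in 0.505% of cases where under 20% in control F0 sperm, and lower in 25.3% and higher in 2.13% where over 80%. The shares of members were 30.3% higher for sperm-low and 25.2% lower for sperm-high ones. The regions were not matched on level within these limits, and the shares were not tested against each other. The sons had CAST/EiJ mothers, and the column headings of F1 and F0 sperm begin with different numbers. The F0 males had been exposed to smoke themselves, while of the sons only the fathers had been. Generation, direct exposure, maternal strain and any difference between these sets of libraries cannot be told apart here. The 5 members with the smallest p included 4 sperm-high ones that were far lower in F1 sperm. Phactr2, a phosphatase and actin regulator, has an intronic member that ranged from 90.5 to 99.1% in 9 F0 libraries and from 32.9 to 49.6% in 6 F1 libraries, with medians of 97.9 and 40.1%. The groups were far apart, by 56.2 points (SE 2.39, adjusted p = 1.15e-09), and its level in smoked WT brain was 49.7% ± 10.4 (n = 8). The member nearest to Dapl1 ranged from 91.5 to 98.4% in F0 and from 38.3 to 59.6% in F1 sperm, with medians of 96.1 and 51.6%, a fall of 44.1 points (SE 2.47, adjusted p = 4.97e-09). Members nearest to Gm47872 and Frg1 were lower in F1 by 31.8 and 28.4 points, also without overlap. The sperm-low member in an intron of Fat3, a giant cadherin, was higher in F1 in each of 5 libraries, with 11.1 to 14.8% against 0 to 1.49% in F0. Of the 14 imprinted members only that near Nnat and Blcap was called, at 12.03% in F1 against 8.94% in F0 sperm (adjusted p = 0.0094).

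In brain, members of sons of smoked Nrf2-/- males were lower than those of sons of control Nrf2-/- males, but none passed the test. The median difference was -5.19 points for 1318 sperm-low and -3.97 points for 2887 sperm-high members, against -0.28 over all regions. Regions nearer to the members in level had lower means as well. For other regions at 20 to 40% in control WT brain the library medians averaged 26.8% ± 3.86 in smoked and 31.5% ± 2.15 in control Nrf2-/- brain, and for those at 60 to 80% they averaged 71.3% ± 1.89 and 73.4% ± 1.21 (n = 8 each). No member of 4205 was called by limma, beside 0.00288% of all regions, while 766 (18.2%) had an unadjusted p under 0.05, against 8.83% of all regions. On simulated data this fit missed most changes of the smaller size put in, which was above these medians. Against sons of smoked WT males the median differences were -5.81 and -3.45 points, and 4 of 4209 members were called lower, beside 0.0533% of all regions called (0.0476% lower and 0.00576% higher), with 868 (20.6%) at an unadjusted p under 0.05, against 13.9% of all regions. These differences were smaller without 5 brain libraries that had a mean under 45% over all regions. Those libraries were column 8 of smoked WT and columns 2, 4, 5 and 6 of smoked Nrf2-/- brain. In those 5 the median sperm-low member was at 37.8 to 44.8% and in the 27 others at 45.8 to 55.7%, and sperm-high members were at 43.8 to 48.1% against 47.9 to 58.2%. Regions over 20% in control WT brain that were no member also had lower ranges, with library medians of 20.9 to 25.6% in the 5 and 25.8 to 35.6% in the others for those at 20 to 40% in control WT brain, 67.5 to 71.7% and 71.4 to 75.8% for those at 60 to 80%, and 89.2 to 91.9% and 90.1 to 93.1% for those over 85%. Those under 10% had library medians of 1.29% ± 0.43 (n = 5) and 1.03% ± 0.46 (n = 27). Fewer members had a value in the 5 libraries (3658 to 4172) than in the 27 others (4042 to 4226). Without the 5 libraries the median differences were -1.29 and -1.41 points between smoked and control Nrf2-/- and -3.02 and -2.30 points between Nrf2-/- and WT, and limma called no member, beside 0% and 0.00728% of all regions, with 205 and 386 members (4.94 and 9.30%) at an unadjusted p under 0.05, against 4.48 and 7.79% of all regions. Without those libraries 4 remained in the smoked Nrf2-/- and 7 in the smoked WT group. The 5 were chosen for their low level after the values were seen, and 4 of them came from the lower group. Smaller differences and fewer calls without them therefore follow from that choice.

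**Figure D5:**
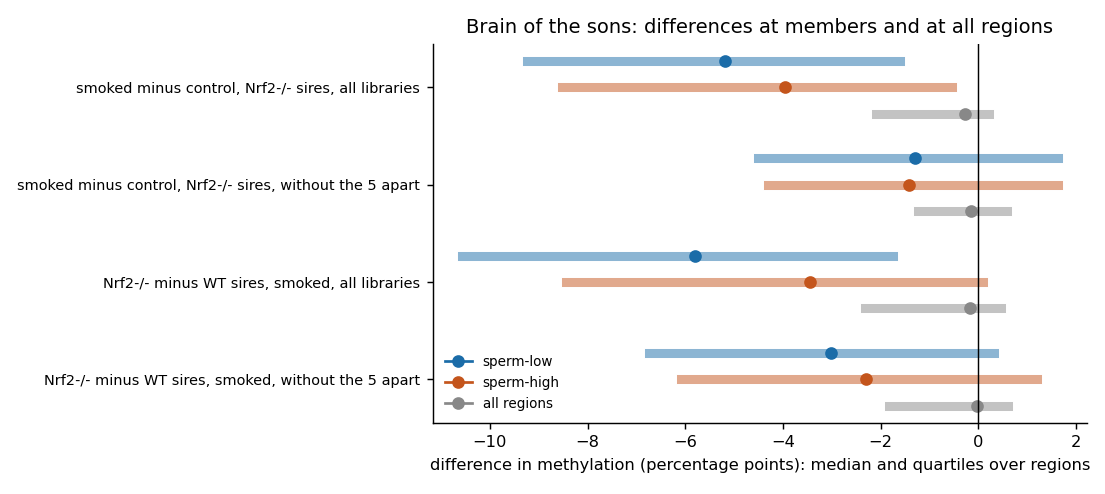
Differences in DNAme (percentage points) between brain groups over sperm-low members (blue), sperm-high members (orange) and all regions (grey), with all libraries and without the 5 with a low mean; points are medians over regions and bars run between quartiles. With all libraries the member medians are between -5.81 and -3.45 points, without the 5 between -3.02 and -1.29. The 5 were chosen by that low mean after the data were seen, so smaller differences follow from the choice.

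The 5 libraries were set apart by their mean over all regions, so a lower level at most intermediate regions follows from that choice, and the counts of listed regions are a description. Among regions at 20 to 80% in control brain, 9 of 10 near oligodendrocyte-lineage genes, 6 of 6 near astrocyte genes, 5 of 8 near neuronal genes, 6 of 8 near microglia and endothelium genes, 6 of 7 near germline and pluripotency genes, 51 of 59 near maternal-mark genes and 13 of 14 near paternal-mark genes were lower in the 5 libraries than in the 27 others. The share was 73.4% over all 18998 regions at 20 to 80%, 86.2% over sperm-low and 73.4% over sperm-high members. The Mbp promoter ranged from 3.33 to 46.2% in the 5 and from 36.9 to 77.3% in the 27, with medians of 14.3 and 54.9%. Olig1 had medians of 19.8 and 47.2%, and Rbfox3, from the neuronal list, 34.7 and 45.9%. Sox10, from the oligodendrocyte list, was at 52.4% ± 3.17 (n = 5) against 57.6% ± 5.58 (n = 27), and P2ry12, from the list of microglia and endothelium, was higher in the 5, at 65.4% ± 3.84 against 62.9% ± 4.20. From the same list C1qb was at 48.8% ± 14.9 (n = 5) against 63.7% ± 8.09 (n = 27), and Flt1 at 54.3% in the 1 library of the 5 with a value against 60.3% ± 11.7 (n = 24). Plagl1 was at 27.7% ± 4.82 (n = 5) against 45.9% ± 4.40 (n = 27), while Slc38a4 was at 58.2% ± 5.51 against 55.5% ± 6.36 and Jade1 at 53.8% ± 4.77 against 47.6% ± 7.22. The part of cell composition in the brain differences was not tested. Of the 14 imprinted members 13 were lower in smoked than in control Nrf2-/- brain, none of them called, where 80.6% of all members and 64.2% of all regions were lower. Plagl1 was 11.1 points lower (SE 3.72, limma adjusted p = 0.386) and Magel2 11.1 points lower (SE 4.21, adjusted p = 0.43).

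The 4 members called between smoked Nrf2-/- and smoked WT brain were Caskin1, Dapl1, Wfs1 and Slc37a1, and none was called without the 5 libraries or when only these 2 groups were fitted. The count depended on single libraries, with 139 of 4207 members called when smoked WT column 8 alone was left out, 36 and 19 without smoked Nrf2-/- columns 1 or 8, and 0 without smoked WT column 3. In the same order, 694 of 69377, 258 of 69011, 170 of 69046 and 7 of 69347 of all regions were called. The coding member of Caskin1, a synaptic scaffold protein, ranged from 18.3 to 51.1% in 6 smoked Nrf2-/- libraries and from 53.97 to 74.4% in 7 smoked WT libraries, with medians of 35.7 and 65.1%. The groups were separate, by 27.2 points (SE 4.57, adjusted p = 0.017). It was at 55.9% ± 6.22 (n = 7) in sons of control Nrf2-/- males. The member nearest to Dapl1 was below the smoked WT mean in all 8 smoked Nrf2-/- libraries, but the groups overlapped, at 33.1% ± 4.86 against 47.8% ± 5.00 (n = 8 each; 14.8 points lower, SE 2.63, adjusted p = 0.0192). Control Nrf2-/- brain was also low, at 28.1% ± 4.67 (n = 8). In F0 sperm this member had values in every WT group, and in none of the Nrf2-/- libraries did 50% of its cytosines have one. It lies 16.2 Mb from Nfe2l2, the gene targeted in Nrf2-/- mice. The intergenic member nearest to Wfs1, which encodes wolframin of the endoplasmic reticulum, fell by 26.2 points (SE 5.07, adjusted p = 0.0433), and Slc37a1, a sugar-phosphate exchanger, with a member at its promoter, by 28.5 points (SE 5.77, adjusted p = 0.05), both with overlapping groups.

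In F0 sperm 11 of 3963 members differed between smoked Nrf2-/- and smoked WT males, 4 higher and 7 lower, beside 0.352% of all regions called (0.19% higher and 0.163% lower). Of 8 sperm-high members 7 were lower in Nrf2-/- and all 3 sperm-low members were higher. The rule chose members near the ends of the scale in WT sperm, which leaves little room for the opposite directions. When only these 2 groups were fitted 4 were called, 0 higher and 4 lower, and with array weights 20, 9 higher and 11 lower. In these fits 87 and 317 of all 66456 regions were called. Creb5, a CREB-family transcription factor, has an intronic member that ranged from 58.4 to 63.5% in 9 smoked Nrf2-/- libraries and from 92.8 to 97.2% in 9 smoked WT libraries, with medians of 60.9 and 96.4%. The groups were far apart, by 34.4 points (SE 1.03, adjusted p = 2.13e-37). Control Nrf2-/- sperm, in no part of that contrast, was at 63.9% ± 3.66 (n = 10), and WT sperm of the 3 recovery groups at 96.2 to 96.8%. In brain the same member was at 38.1% ± 7.65 in control and 45.5% ± 7.85 in smoked Nrf2-/- sons and at 51.7% ± 8.69 in smoked WT sons (n = 8 each). The member nearest to Dlx2, a forebrain homeobox gene, was at 69.3% ± 4.20 in smoked Nrf2-/- and 93.3% ± 1.97 in smoked WT sperm (n = 9 each; SE of the difference 1.61, adjusted p = 1.13e-18), and at 70.7% ± 4.36 (n = 10) in control Nrf2-/- sperm. It lies 4.08 Mb from Nfe2l2. The member nearest to Gm28380 was lower by 24.97 points, with only 3 smoked Nrf2-/- libraries, from 64.1 to 88.9%. Those nearest to Cacng1 and 4833405L11Rik were lower by 15.4 and 7.22 points, with overlapping groups at Cacng1. Of the 234 regions called in this contrast 17 (7.26%) lay within 20 Mb of Nfe2l2, where 1.58% of the tested regions lay, and of the 11 members 2 did, Dlx2 and Rapgef4, the latter named after its values were seen. Strain sequence next to the targeted allele and the loss of Nrf2 cannot be told apart in these groups. Caskin1 was higher in Nrf2-/- sperm, at 20.6% against 6.91% in smoked WT sperm (adjusted p = 0.011), a call lost when only the 2 groups were fitted.

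Direct exposure to smoke was tested in Nrf2-/- F0 sperm alone, since the rule used the control WT F0 sperm. There 1 of 3924 members was called, the intergenic member nearest to Erg, an ETS-family factor, beside 0.00607% of all regions, with 303 (7.72%) at an unadjusted p under 0.05, against 6.12% of all regions. It ranged from 81.2 to 97.6% in 8 smoked and from 93.9 to 100% in 10 control libraries, with medians of 93.0 and 99.97%, and the groups overlapped (7.72 points lower, SE 1.42, adjusted p = 0.0342). No member was called by limma when any one of control columns 4, 5, 7, 9 or 10 or smoked columns 1, 6, 7 or 8 was left out, and 2 without control column 6 or smoked column 5. None was called either on the arcsine square root scale, with array weights, with 80% of the cytosines or with only the 2 groups fitted. In F1 sperm of the WT line limma called none of 3199 members and 0% of all regions, with 179 members (5.60%) at an unadjusted p under 0.05, against 5.23% of all regions; the median differences were 0.34 points for sperm-low and 0.54 points for sperm-high members. On simulated data this fit missed most of the changes put in. Those were put into regions of intermediate mean level, while most members in F1 sperm lie near the ends of the scale. In smoked WT F1 sperm the median SD was 3.18 points for sperm-low and 4.21 for sperm-high members. Other regions at 40 to 60% there had 8.68 points. What the fit would miss at members is thus unknown, and changes there may be undetected. After recovery 1 and 2 limma called no member of 4116 and 4209, beside 0% and 0.00289% of all regions, with 216 and 164 (5.25 and 3.90%) at an unadjusted p under 0.05, against 5.03 and 3.48% of all regions. After recovery 3 it called 1 of 3962, beside 0.0254% of all regions (0.0224% lower and 0.00299% higher), with 318 (8.03%) at an unadjusted p under 0.05, against 6.83% of all regions. That member, in an intron of Enox1, a cell-surface oxidase, ranged from 68.8 to 79.2% in 10 recovery 3 libraries and from 79.6 to 91.4% in 9 smoked libraries, with medians of 72.8 and 83.7%. The groups did not overlap, and the level fell by 10.04 points (SE 1.62, adjusted p = 0.000846), a call lost when only the 2 groups were fitted. No imprinted member was called by limma in these sperm contrasts of smoke, recovery or genotype, with 13 of the 14 tested in F1 sperm and 14 in the others, and at most 2 of them had an unadjusted p under 0.05 in any of these.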

How the data were processed

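The deposited tables hold 1 methylation percent per CpG cytosine and library, with no read counts. The authors digested DNA with MspI and TaqαI, sequenced single reads and called methylation; Bismark and mm10 come from the submitters' processing notes. Sperm had been treated to lyse somatic cells. Cytosines of both strands were kept apart, and 1189887 autosomal positions had 4 or more values in both control tables. A region's value in a library was the region level plus the mean deviation of the library's cytosines from each cytosine's mean, where at least 50% of the cytosines had a value; contrasts between generations or tissues used cytosines read in both groups. Between 510221 and 1855573 positions had a value per library. Contrasts were fitted with limma 3.58.1 in R 4.3.3 (trend, at least 3 libraries per group) over all regions, with Benjamini-Hochberg adjustment, and tested on simulated data. Contrasts within F0 sperm or within brain shared an estimate of spread over all groups of that kind. Those groups include the control WT group whose values chose the members. Fits of 2 groups leave it out. Brain libraries with a mean under 45% over all regions were left out in an alternative; that limit was set after seeing the data. A member is named by the gene with the nearest transcription start, or by the listed gene where it is described for a list. Locations came from GENCODE M21 and sequences from RefSeq GRCm38. Named members were all those near listed imprinted genes, the 10 of each class with the most cytosines, up to 5 with the smallest p per contrast and listed imprinted genes with regions that are no member. Some members that this rule names are not reported here. The members and lists were chosen with earlier results of these data known. Alternatives were no trend, an arcsine square root scale, array weights, 80% of the cytosines, fits of 2 groups, leaving out libraries and other limits of the rule.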

Additional observations from a re-analysis of the deposited data

Results flagged for a closer look

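In groups of 4 to 10 libraries, the gap of the highest or lowest library to its nearest neighbour was compared with Dixon's limit in 201 groups that the rule did not use, and 13 passed it; chance passes about 1 in 20. Smoked WT F1 brain column 8 stood below the 7 other libraries of its group in both class medians, at 39.96% over sperm-low members (others 50.5 to 55.7%) and 44.3% over sperm-high members (others 51.6 to 58.2%). The same library was the low one at Nphp4 (30.2%), Papolb (34.1%), Magel2 (24.5%), Plagl1 (26.4%), Gm26796 (23.6%) and Lrg1 (43.5%).

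The other cases were single libraries at single members. In smoked WT F1 brain, column 1 was high at Lmntd1 (68.7%) and Igf2 (69.3%). In control Nrf2-/- F1 brain, column 1 was low at Dapl1 (17.3%) and column 2 high at Jade1 (67.2%). In smoked WT F1 sperm, column 6 was low at Dapl1, with 38.3% against 48.8 to 56.6% in the others. These are the region values of the F1 sperm fit, and the contrast between generations has its own, so the ranges differ.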

How the results depend on the processing

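Counts of members called between tissues (2618 to 3570, and 3219 to 3551 with a library left out) and generations (807 to 1027, and 871 to 1043) stayed within 1.5 times the reported ones under the alternatives run, and 0 members were called in F1 sperm and after recovery 1 and 2 under all of them. The 11 members called between genotypes in F0 sperm became 20 with array weights and 4 when only the 2 groups were fitted. Of all 66456 regions 317 and 87 were called in these fits. The 1 called after recovery 3 became 2 without the trend and 2 with array weights, and 0 when only the 2 groups were fitted. The 1 called for smoke in Nrf2-/- F0 sperm became 0 on the arcsine scale, with array weights, with 80% of the cytosines and with only the 2 groups fitted, and 0 to 2 with a library left out: 0 without control columns 4, 5, 7, 9 or 10 or smoked columns 1, 6, 7 or 8, and 2 without control column 6 or smoked column 5. The 4 called between smoked Nrf2-/- and smoked WT brain became 2 without the trend, 7 with 80% of the cytosines, 0 with only the 2 groups fitted and 0 without the 5 brain libraries that stand apart, a setting chosen after seeing the data. With a brain library left out they ranged from 0 (smoked WT column 3) to 139 (smoked WT column 8), with 36 and 19 without smoked Nrf2-/- columns 1 and 8, 1 without smoked WT or Nrf2-/- column 2, and 2 without smoked WT columns 1 or 4 or smoked Nrf2-/- columns 4, 5 or 6. All regions moved too. Of them 7 and 694 were called without smoked WT columns 3 and 8, and 258 and 170 without smoked Nrf2-/- columns 1 and 8. The 0 between smoked and control Nrf2-/- brain became 0 to 1, with 1 without smoked columns 3 or 8. The cause of these changes was not tested. Joining cytosines up to 300 bp apart gave 6796 members and a brain mean of 45 to 55% gave 2056, with 6 near imprinted genes. The share kept in other brain groups was then 76.1%, and 60.3% with 6 or more values, and the share kept in other sperm groups was 65.3% with joining up to 300 bp and 83.9% with sperm limits of 10 and 90%. No paired analysis was possible because the columns carry no replicate numbers of the labels. Depth is unknown, so the counting error of a value could not be given.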

Other observations

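On chromosome X, left out by the rule, 48 of 1324 regions met the same limits, 17 low and 31 high in sperm. That is 3.63% of its regions, and the share on the autosomes was 6.08%. Both shares come from the values that the rule used and were not tested against each other.

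Among the genes with the most members, named after the counts were seen, were Nav2, a neuron navigator, with 8 in 6 loci, Ajap1 with 7, and Gabbr2, a GABA-B receptor subunit, and Tbcel with 6 each. Sperm-high were all 8 near Nav2, all 7 near Ajap1, all 6 near Tbcel and 4 of 6 near Gabbr2. Of 4 loci with 3 members, that of P2rx4, an ATP-gated channel, held a sperm-low member at a promoter (1.78% in control sperm, 49.8% in control brain) and 2 sperm-high members (96.0 and 92.9% in sperm, 42.5 and 43.6% in brain). At AC162182.1 all 3 members were sperm-low.

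Of the 37 regions called between smoked Nrf2-/- and smoked WT brain, 8 (21.6%) lay within 20 Mb of Nfe2l2, against 1.57% of the regions tested. The number called was 694 without smoked WT column 8, 7 without smoked WT column 3, and 5 without the 5 libraries that stand apart or with only the 2 groups fitted; the positions of those calls were not counted. Of the 4 members called there 1 did, that nearest to Dapl1.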
